A study of Mus musculus with 12 samples.

Results

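Interferon-induced GTPases of the immunity-related GTPase (IRG) family and the guanylate-binding protein (GBP) family, together with the related dynamin-like Mx proteins, were followed in mouse cells given uniSTING mRNA or vesicles from cells so treated. The genes were taken by name: Irgm1, Irgm2, Igtp, Iigp1 and Ifi47 of the IRG family, Gbp2, Gbp3 and Gbp7 of the GBP family, and Mx1 and Mx2. All 10 names were found among the 53647 genes of the count files, and 9 passed the filter on low counts, which Mx1 did not.

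The 12 RNA-seq libraries fell into 6 groups of 2, and every group was labelled wild type (WT). Cells labelled DC2.4, an immortalised mouse dendritic cell line, and cells labelled 4T1, a mouse mammary tumour line, received mRNA for uniSTING, named in the series title as a universal mimic of the DNA-sensing adaptor STING, or Mock mRNA, which encoded EGFP. Further cells labelled DC2.4 were kept for 24 h with vesicles shed by 4T1 tumour cells that had received uniSTING (EXOuniSTING) or Mock (EXOmock). The labels name a transfection reagent and lipid nanoparticles as ways of giving the mRNA without saying which a library received, and give no duration for the mRNA treatments. Each group is one cell line, and its libraries are called Preparation 1 and Preparation 2. Nothing in the labels says that these came from separate cultures, so that the p-values measure the spread between preparations, which may be technical.

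The markers went against the labels for the mRNA experiments. Levels are given in counts-per-million (CPM), the share of a library's counts scaled to a common total. The summed level of 12 epithelial markers was 5247 to 5507 CPM in the 4 libraries labelled DC2.4 that received mRNA, and 0.238 to 6.30 CPM in the other 8 libraries. The summed level of 15 leukocyte markers was 44.1 to 49.9 CPM in those 4 libraries, and 4402 to 4974 CPM in the other 8. The cell line labels are therefore given below only as labels. Libraries had 14059040 to 25975658 counts in total, and Preparation 2 was 1.26 to 1.42 times deeper than Preparation 1 of the same group. Every Preparation 1 library also held transcripts of other tissues, for example Ins2 (insulin) at 11.5 to 112 CPM, where every Preparation 2 library had 0 counts.

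Interferons bind receptors that signal through JAK kinases to STAT transcription factors. Type I interferon acts mainly through a complex with IRF9 that binds the interferon-stimulated response element (ISRE), and interferon gamma mainly through the gamma-activated site (GAS) and through IRF1. IRG proteins with a methionine in the GTP-binding motif (Irgm1, Irgm2 and Igtp, the last also known as Irgm3) protect the cell's own membranes and control the other IRG proteins. Iigp1 (Irga6) and Ifi47 (Irgd) belong to the second kind, whose effector members coat and disrupt the vacuoles of intracellular parasites and bacteria. GBPs assemble on such vacuoles and on bacteria and bring caspases to them. Mouse Mx1 restricts influenza viruses in the nucleus and Mx2 acts in the cytoplasm, while many laboratory strains carry defective copies of both. The RefSeq annotation of the C57BL/6J genome accordingly lists Mx1 and Mx2 as transcribed pseudogenes.

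In the GRCm39 coordinates of the files, the members lay in family clusters. Irgm1 (ENSMUSG00000046879) was at 48752795-48762510 on the minus strand of chromosome 11, at one end of a cluster of IRG genes whose other end held Ifi47 (48967414-48987801, plus strand). Igtp (58090382-58098417) and Irgm2 (58090444-58113608) lay on the plus strand in a second cluster of chromosome 11, beside Gm12250, and shared 162 exonic bases, so that reads in those bases could not be given to one of the 2 genes. Gbp7 (142236103-142255910), Gbp3 (142265787-142278970) and Gbp2 (142326363-142343769) followed each other on the plus strand of chromosome 3. Mx1 (97248235-97264107, minus strand) and Mx2 (97336508-97362100, plus strand) were 72.4 kb apart on chromosome 16. Reads were counted without regard to strand. Ifi47 shared 217 exonic bases with Olfr56 or the antisense gene Gm12188, Gbp7 shared 637 with Gm43802 and Gbp2 shared 24 with the antisense gene Mir6381, and the counts of these genes are uncertain to that extent.

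Promoter sequences were found in the RefSeq table for 7 of the 10 members, and those of Irgm1, Irgm2, Igtp, Gbp2, Gbp3 and Gbp7 are shown because they carry the ISRE core; Iigp1, Mx1 and Mx2 are named only. Each line runs 5′ to 3′ from 120 bases before to 50 bases after the annotated start (GRCm38.p6, a different build from that of the files), and capitals mark matches to the ISRE core GAAANNGAAA, or TTTCNNTTTC on the other strand, and to the GAS TTCNNNGAA, which reads the same on both strands. The windows are chr11:48871371-48871540 (minus strand) for Irgm1, chr11:58214857-58215026 (plus) for Irgm2, chr11:58199436-58199605 (plus) for Igtp, chr3:142620543-142620712 (plus) for Gbp2, chr3:142559924-142560093 (plus) for the first of 2 annotated starts of Gbp3 and chr3:142530216-142530385 (plus) for Gbp7.
Irgm1: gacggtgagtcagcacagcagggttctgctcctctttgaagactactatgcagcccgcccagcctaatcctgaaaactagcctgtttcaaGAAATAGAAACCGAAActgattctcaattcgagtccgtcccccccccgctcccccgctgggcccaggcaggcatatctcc
Irgm2: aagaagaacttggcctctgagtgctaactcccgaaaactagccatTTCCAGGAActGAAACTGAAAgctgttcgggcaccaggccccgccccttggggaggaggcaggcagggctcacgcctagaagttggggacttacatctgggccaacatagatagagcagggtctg
Igtp: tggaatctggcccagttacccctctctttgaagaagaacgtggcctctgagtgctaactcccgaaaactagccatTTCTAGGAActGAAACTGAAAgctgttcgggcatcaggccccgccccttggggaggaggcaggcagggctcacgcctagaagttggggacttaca
Gbp2: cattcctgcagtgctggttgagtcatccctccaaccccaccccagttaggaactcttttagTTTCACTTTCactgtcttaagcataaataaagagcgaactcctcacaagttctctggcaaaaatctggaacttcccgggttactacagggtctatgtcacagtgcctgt
Gbp3: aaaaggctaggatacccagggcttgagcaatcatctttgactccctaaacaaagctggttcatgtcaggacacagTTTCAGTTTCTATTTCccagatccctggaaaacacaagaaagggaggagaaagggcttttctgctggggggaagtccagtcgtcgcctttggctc
Gbp7: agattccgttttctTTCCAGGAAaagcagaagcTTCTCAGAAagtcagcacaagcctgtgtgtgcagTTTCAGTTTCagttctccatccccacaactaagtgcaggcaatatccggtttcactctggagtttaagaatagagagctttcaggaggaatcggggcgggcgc

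Over the full windows of 250 bases before to 50 after the start, 6 of the 7 members had an ISRE core, against 3.99% of the 27025 genes in the table. The cores began between 64 and 24 bases before the start, and Irgm1 and Gbp3 each had 2 that shared 4 letters. A GAS was in 3 of the 7 members (Irgm2, Igtp and Gbp7, which had 2), against 9.55% of genes. The Irgm2 and Igtp sequences were nearly the same: lined up on the ISRE core, 98 of 100 bases were identical, and both held a GAS directly before the core. Ifi47, and the second annotated start of Gbp3, had no match to either motif. The counted Irgm2 gene begins beside Igtp, while its window here belongs to a RefSeq start well downstream of that point. The annotations of Irgm2 thus differ. These are matches of letters in 1 window per start and were not tested for factor binding.

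Given uniSTING mRNA, the libraries labelled DC2.4 had higher levels of 6 of the 9 tested members than those given Mock mRNA: Mx2, Irgm2, Igtp, Gbp7, Gbp3 and Irgm1. Called here means a Benjamini-Hochberg adjusted p below 0.05 over all 14863 tested genes in edgeR's quasi-likelihood test. Over all genes, 20.8% were called higher and 20.9% lower in this comparison, and 2.19% were called higher by at least 2-fold, against 5 of the 9 members. Mx2 and Iigp1 passed the filter on low counts only through the uniSTING libraries of this comparison, so their testing depended on being high there. A filter of at least 1 CPM in 4 libraries left both untested, and 5 of 7 members were called. The median log2 fold change of the 9 was 1.03, beside 0.00 over all genes, and the ratio was above 1 in both preparations for all 9. These included Ifi47 and Gbp2, whose groups overlapped. The share of all genes above 1 in both preparations was not computed. In bulk RNA, fewer cells of a type and less RNA per cell cannot be told apart.

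Of the regulatory IRG genes, Irgm2 was at 8.70 and 7.30 CPM in uniSTING libraries and at 3.09 and 2.72 CPM in Mock libraries labelled DC2.4. Its log2 fold change was 1.48 ± 0.17 (SE, n = 2 libraries each; adjusted p = 7.53e-06 by edgeR). Igtp was at 8.86 and 6.38 CPM in uniSTING libraries and at 3.03 and 2.68 CPM in Mock libraries, a log2 fold change of 1.43 ± 0.24 (adjusted p = 0.000235 by edgeR). The groups were apart for both genes. Per kilobase of exonic length, the level of Igtp was 3.77 ± 0.87 CPM per kb with uniSTING and 1.41 ± 0.12 CPM per kb with Mock, and that of Irgm2 was 2.17 ± 0.27 and 0.787 ± 0.070 CPM per kb (SD, n = 2 each). Irgm1, a broadly expressed regulator of the family, was at 34.9 and 34.6 CPM in uniSTING libraries and at 26.8 and 28.2 CPM in Mock libraries. Its rise was the smallest of those called, at a log2 fold change of 0.36 ± 0.07 (adjusted p = 0.00139 by edgeR).

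The effector-type IRG genes differed from each other. Ifi47 was at 17.0 and 16.1 CPM in uniSTING libraries and at 16.7 and 15.8 CPM in Mock libraries. The groups overlapped, with a log2 fold change of 0.05 ± 0.13 (adjusted p = 0.828 by edgeR). Iigp1, on chromosome 18, was far lower in abundance, with 41 and 23 counts in uniSTING libraries and 3 and 7 counts in Mock libraries, which is 1.55 ± 0.89 and 0.245 ± 0.103 CPM (SD, n = 2 each). Its log2 fold change of 2.60 ± 1.05 did not pass (adjusted p = 0.0626 by edgeR), although the groups were apart. It passed with the preparation number as a block (adjusted p = 0.00731), without a filter (adjusted p = 0.000261) and with only the libraries compared (adjusted p = 0.00330). Over its alternatives the adjusted p ran from 0.000261 to 0.315.

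Among the GBPs, Gbp3 was at 16.0 and 15.5 CPM in uniSTING libraries and at 7.31 and 8.48 CPM in Mock libraries, a log2 fold change of 1.01 ± 0.23 (adjusted p = 0.00296 by edgeR). Gbp7, linked in mouse to the delivery of NADPH oxidase to compartments that hold bacteria, was at 5.89 and 6.02 CPM in uniSTING libraries and at 2.74 and 3.13 CPM in Mock libraries. Its log2 fold change was 1.03 ± 0.24 (adjusted p = 0.00337 by edgeR). Both genes thus stood apart from Mock in both preparations. Gbp2, a GBP that coats Toxoplasma vacuoles in mouse cells, was at 21.4 and 18.7 CPM in uniSTING libraries and at 19.0 and 17.5 CPM in Mock libraries. These ranges overlapped, with a log2 fold change of 0.15 ± 0.29 (adjusted p = 0.728 by edgeR). Its promoter, shown above, holds an ISRE core like those of Gbp3 and Gbp7.

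Mx2 had 51 and 64 counts in uniSTING libraries and 4 and 4 counts in Mock libraries, or 2.63 ± 0.11 and 0.205 ± 0.033 CPM (SD, n = 2 each). Its log2 fold change of 3.67 ± 0.47 was the largest among the tested members (adjusted p = 1.99e-05 by edgeR). The same uniSTING libraries let Mx2 pass the filter. Mx1, below the filter, had 17 and 10 counts in uniSTING libraries and 1 and 0 counts in Mock libraries. Its ratio of summed counts per library total was 24.3 (95% exact interval 4.01 to 995, counting error only). Without the filter its adjusted p was 0.00260, and over its alternatives it ran from 0.00260 to 0.0874.

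**Figure D1:**
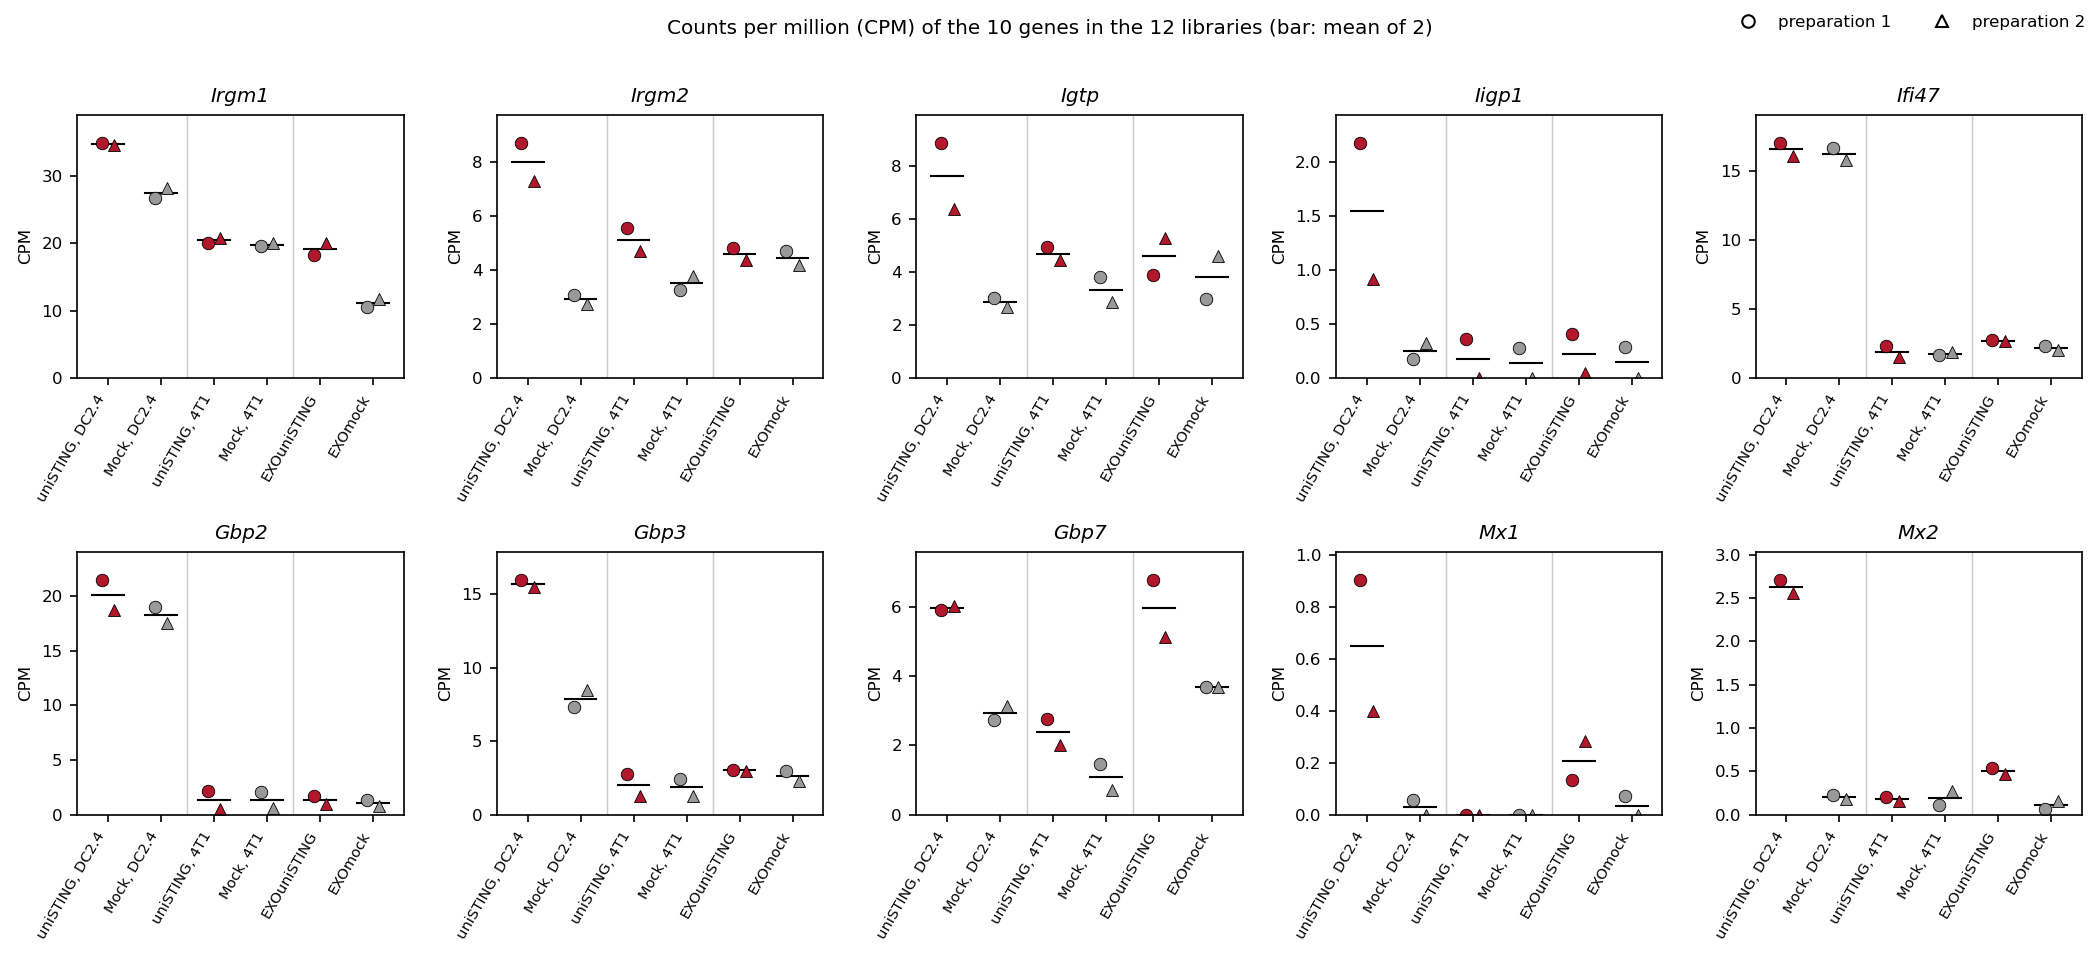
CPM of each of the 10 genes in the 12 libraries, with uniSTING or EXOuniSTING groups in red and Mock or EXOmock groups in grey; circles are Preparation 1, triangles Preparation 2 and bars the mean of 2, and DC2.4 and 4T1 are the labels. Ifi47, Gbp2 and Gbp3 are high in the 4 libraries labelled DC2.4 given mRNA, and Mx2 reaches 2.63 CPM in uniSTING libraries with that label and is at most 0.536 CPM in the other libraries.

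In the libraries labelled 4T1, 2 of the 9 tested members were higher with uniSTING mRNA than with Mock mRNA, Gbp7 and Irgm2. All genes gave 12.6% called higher and 15.7% called lower. The median log2 fold change of the 9 was 0.09, beside -0.01 over all genes, and 4 of the 8 members with a ratio in both preparations were above 1 in both. No share over all genes was computed for this count.

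Gbp7 was at 2.75 and 2.00 CPM in uniSTING libraries and at 1.45 and 0.714 CPM in Mock libraries labelled 4T1, a log2 fold change of 1.14 ± 0.30 (adjusted p = 0.0103 by edgeR). Irgm2 was at 5.55 and 4.70 CPM in uniSTING libraries and at 3.24 and 3.77 CPM in Mock libraries, a log2 fold change of 0.50 ± 0.17 (adjusted p = 0.0391 by edgeR). The groups were apart for both genes, yet neither call was stable. The call of Gbp7 was lost without Mock Preparation 2 (log2 fold change 0.67, adjusted p = 0.149) and without uniSTING Preparation 1 (0.92, adjusted p = 0.0760). That of Irgm2 was lost without Mock Preparation 1 (0.40, adjusted p = 0.192), without Mock Preparation 2 (0.64, adjusted p = 0.0607), without uniSTING Preparation 1 (0.39, adjusted p = 0.201), in DESeq2 (adjusted p = 0.157), in limma-voom (adjusted p = 0.0523) and without a filter (adjusted p = 0.0724). Over all its alternatives the adjusted p ran from 0.0308 to 0.201. Igtp, with 4.94 and 4.43 CPM in uniSTING libraries and 3.80 and 2.86 CPM in Mock libraries, did not pass at a log2 fold change of 0.48 ± 0.24 (adjusted p = 0.165 by edgeR).

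Irgm1 was at 20.1 and 20.8 CPM in uniSTING libraries and at 19.6 and 20.0 CPM in Mock libraries labelled 4T1, a log2 fold change of 0.02 ± 0.08 (adjusted p = 0.927 by edgeR). Mx2 had 4 and 4 counts in uniSTING libraries and 2 and 7 counts in Mock libraries. Mx1 had 0 counts in all 4, which allows 0.115 to 0.168 CPM per library. Ifi47, Gbp2 and Gbp3 averaged 1.90 ± 0.56, 1.38 ± 1.14 and 2.04 ± 1.08 CPM in uniSTING libraries and 1.74 ± 0.17, 1.35 ± 1.01 and 1.89 ± 0.81 CPM in Mock libraries (SD, n = 2 each). The ranges overlapped for these 3 genes, and their adjusted p-values were 0.960, 1 and 0.905 by edgeR. Iigp1 had 7 and 0 counts in uniSTING libraries and 5 and 0 in Mock libraries, with every count in Preparation 1.

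With vesicles, 2 of the 9 tested members were higher in EXOuniSTING than in EXOmock libraries, Irgm1 and Mx2, against 7.96% of all genes called higher and 8.14% called lower. The median log2 fold change of the 9 was 0.36, beside 0.00 over all genes, and the ratio was above 1 in both preparations for the 8 members that had one in each. Here too no share over all genes was computed.

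Irgm1 was at 18.2 and 20.1 CPM in EXOuniSTING libraries and at 10.5 and 11.7 CPM in EXOmock libraries. The groups were well apart, with a log2 fold change of 0.78 ± 0.09 (adjusted p = 6.31e-05 by edgeR) that kept its call under every alternative run. Mx2 had 8 and 10 counts in EXOuniSTING libraries and 1 and 3 counts in EXOmock libraries, a log2 fold change of 1.99 ± 0.62 (adjusted p = 0.0438 by edgeR). On these few counts the call was lost with the preparation as a block (adjusted p = 0.0608) and without any single library, where the adjusted p ran from 0.0975 without EXOmock Preparation 2 to 0.208 without EXOmock Preparation 1. Mx1 had 2 and 6 counts in EXOuniSTING libraries and 1 and 0 counts in EXOmock libraries, a ratio of 7.25 (95% exact interval 0.972 to 322).

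Gbp7 was at 6.77 and 5.13 CPM in EXOuniSTING libraries and at 3.70 and 3.69 CPM in EXOmock libraries. The groups were apart, and the log2 fold change of 0.68 ± 0.25 did not pass (adjusted p = 0.0797 by edgeR), while it did with the preparation as a block (adjusted p = 0.0475), without a filter (adjusted p = 0.0278) and with only the libraries compared (adjusted p = 0.0251). Irgm2 averaged 4.60 ± 0.31 CPM in EXOuniSTING libraries and 4.43 ± 0.37 CPM in EXOmock libraries, and its partner Igtp 4.58 ± 0.98 and 3.79 ± 1.14 CPM (SD, n = 2 each). The ranges of both genes overlapped, with adjusted p-values of 0.903 and 0.518 by edgeR. Ifi47 averaged 2.69 ± 0.08 CPM with EXOuniSTING and 2.13 ± 0.21 CPM with EXOmock, Gbp3 3.02 ± 0.08 and 2.64 ± 0.49 CPM, and Gbp2 1.39 ± 0.50 and 1.08 ± 0.39 CPM. None of these 3 passed, at adjusted p-values of 0.300, 0.732 and 0.769 by edgeR. Iigp1 had 6 and 1 counts with EXOuniSTING and 4 and 0 with EXOmock.

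**Figure D2:**
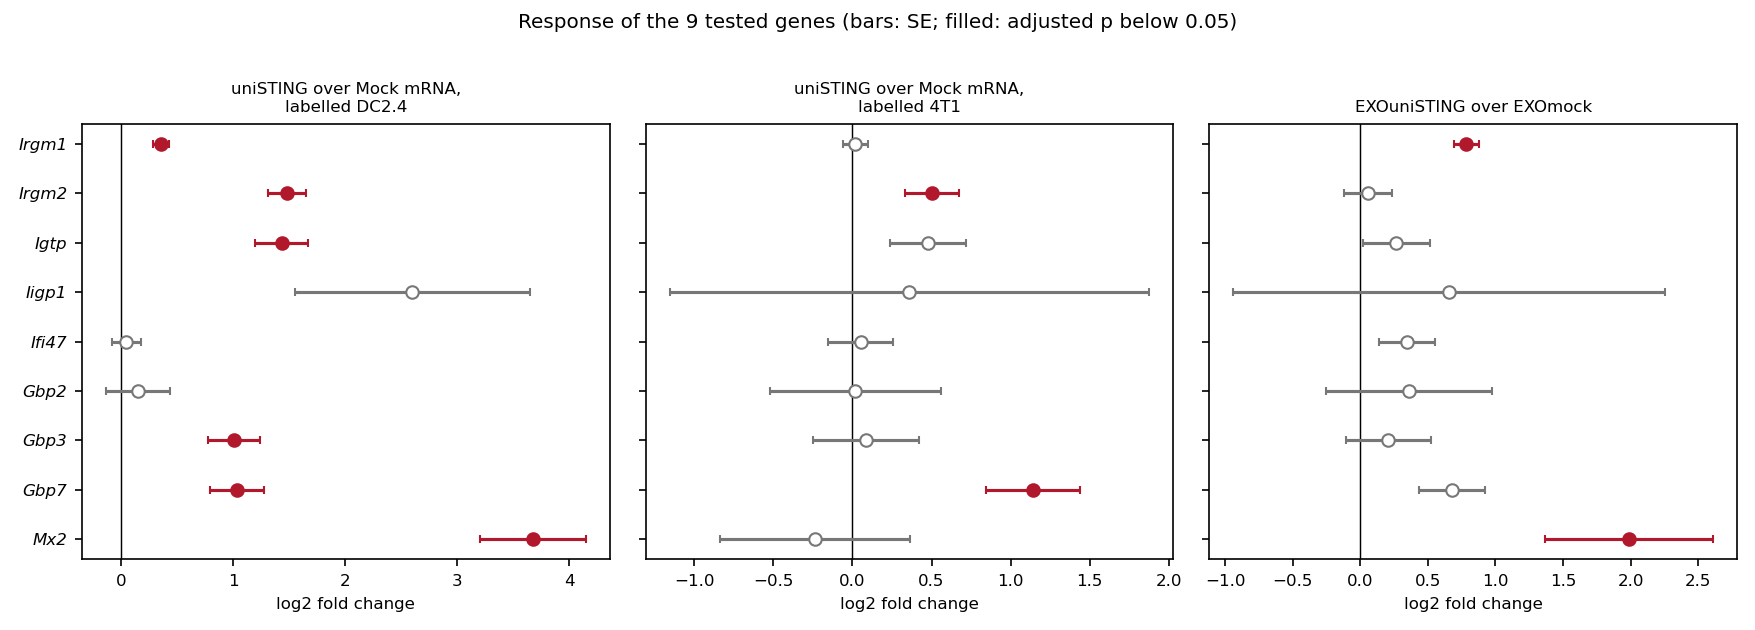
Log2 fold changes of the 9 tested genes with standard errors in the 3 comparisons, each panel on its own axis; filled red points passed an adjusted p of 0.05. The points passed for 6, 2 and 2 genes from left to right, and Irgm1 passed with vesicles at 0.78 but lay at 0.02 in the libraries labelled 4T1.

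Whether the responses themselves differed was tested within the same edgeR fit. The mRNA response in libraries labelled DC2.4 was above that in libraries labelled 4T1 for 4 of the 9 members, against 16.0% of all genes called higher and 15.1% called lower in this difference. The difference of log2 fold changes was 3.91 ± 0.79 for Mx2 (adjusted p = 0.00168), 0.98 ± 0.24 for Irgm2 (adjusted p = 0.00669), 0.96 ± 0.34 for Igtp (adjusted p = 0.0466) and 0.34 ± 0.11 for Irgm1 (adjusted p = 0.0284). Mx2 passed the filter only through the uniSTING libraries labelled DC2.4. With a filter of at least 1 CPM in 4 libraries, which left Mx2 untested, 3 of 7 members were called. Irgm2 kept its call under every alternative run. Mx2 lost it without Mock Preparation 2 labelled 4T1 (adjusted p = 0.114), where its difference was 3.07, and DESeq2 lost the calls of Igtp (adjusted p = 0.0774) and Irgm1 (adjusted p = 0.0874). Igtp also lost its call in limma-voom (adjusted p = 0.0683) and with the length trend removed (adjusted p = 0.0899). Igtp kept its call with 1 library left out only where this was uniSTING Preparation 2 labelled DC2.4 or Mock Preparation 2 labelled 4T1, with an adjusted p up to 0.164 in the other cases. Irgm1 did so only without Mock Preparation 2 labelled DC2.4, Mock Preparation 1 labelled 4T1 or uniSTING Preparation 2 labelled 4T1, with an adjusted p up to 0.0879 in the other cases. Gbp7, which was called in both mRNA experiments, had a difference of -0.11 ± 0.38 (adjusted p = 0.905), and Gbp3, called in one of them, had a difference of 0.92 ± 0.41 that did not pass (adjusted p = 0.106). The difference of Gbp3 passed without Mock Preparation 2 labelled 4T1 (1.35, adjusted p = 0.0294), without uniSTING Preparation 1 labelled 4T1 (1.55, adjusted p = 0.00747) and without a filter (adjusted p = 0.00989).

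The vesicle response was set against the mRNA response in the libraries labelled 4T1, since both experiments had high leukocyte markers; the delivered agent differed too. Irgm1 was the 1 member called, with a difference of 0.77 ± 0.12 (adjusted p = 0.000320 by edgeR), where 15.0% of all genes were called higher and 13.0% lower. That call held under every alternative run. For Mx2 the difference was 2.23 ± 0.88 (adjusted p = 0.0758; 2.66 and 0.0470 without Mock Preparation 1 labelled 4T1), and for Irgm2 it was -0.45 ± 0.24 (adjusted p = 0.198).

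**Figure D3:**
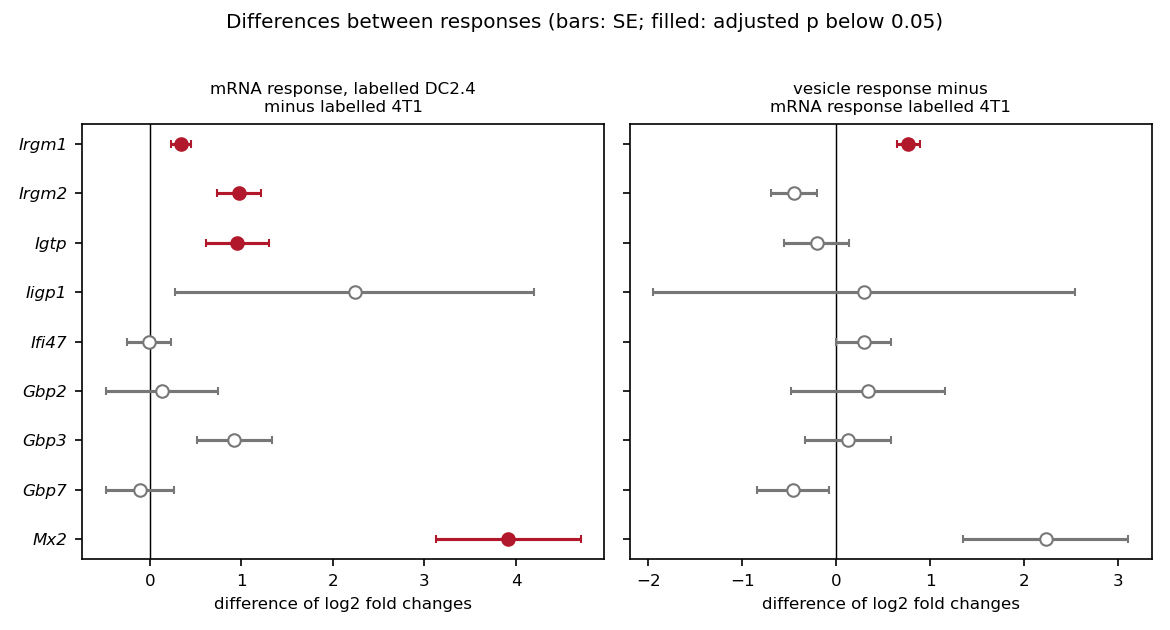
Differences of log2 fold changes with standard errors for the 9 tested genes, on the left the mRNA response labelled DC2.4 minus that labelled 4T1, on the right the vesicle response minus the mRNA response labelled 4T1; filled red points passed an adjusted p of 0.05. Mx2, Irgm2, Igtp and Irgm1 passed on the left and Irgm1 at 0.77 on the right.

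Levels without uniSTING also differed between the labels. In Mock libraries labelled 4T1, 5 of the 9 tested members were lower than in Mock libraries labelled DC2.4, in a contrast where 42.4% of all genes were called lower and 40.5% higher. Gbp2 averaged 1.35 ± 1.01 CPM in Mock libraries labelled 4T1 and 18.3 ± 1.07 CPM in those labelled DC2.4, a log2 difference of -3.93 ± 0.40 (adjusted p = 3.16e-07 by edgeR). Ifi47 averaged 1.74 ± 0.17 and 16.3 ± 0.60 CPM, a log2 difference of -3.28 ± 0.17 (adjusted p = 9.66e-11). Gbp3, Gbp7 and Irgm1 were lower by log2 differences of -2.19, -1.57 and -0.55, with adjusted p-values of 5.54e-06, 0.000181 and 1.33e-05. The members that differed most here, Gbp2 and Ifi47, were the 2 that had log2 fold changes nearest to 0 with uniSTING mRNA in the libraries labelled DC2.4. Irgm2 and Igtp averaged 3.51 ± 0.37 and 3.33 ± 0.67 CPM with the 4T1 label and 2.90 ± 0.26 and 2.85 ± 0.25 CPM with the DC2.4 label, and did not pass (adjusted p = 0.296 and 0.629).

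EXOmock libraries and Mock libraries labelled 4T1, which shared the leukocyte markers but differed in treatment, were closer. Gbp7 averaged 3.69 ± 0.01 CPM in EXOmock libraries and 1.08 ± 0.52 CPM in Mock libraries labelled 4T1, a log2 difference of 1.82 ± 0.29 (adjusted p = 9.60e-05 by edgeR). Irgm1 averaged 11.1 ± 0.84 CPM in EXOmock libraries and 19.8 ± 0.25 CPM in those Mock libraries, a log2 difference of -0.83 ± 0.09 (adjusted p = 1.89e-06). The other 7 tested members did not pass, although Gbp3 did without Mock Preparation 1 labelled 4T1 (log2 difference 0.98, adjusted p = 0.0476), in a contrast where 26.1% of all genes were called higher and 27.6% lower. EXOuniSTING libraries, at 19.2 ± 1.33 CPM of Irgm1, overlapped in range with the Mock libraries labelled 4T1.

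Per kilobase of exonic length, which lets levels be set between genes, Irgm1 was the highest member in Mock libraries labelled 4T1, at 3.41 CPM per kb, and in EXOmock libraries, at 1.91 CPM per kb. Igtp was at 1.88 CPM per kb in EXOmock libraries, a difference smaller than its spread. In Mock libraries labelled DC2.4 the order was led by Gbp2 at 7.26 ± 0.42 CPM per kb, Ifi47 at 6.57 ± 0.24 and Irgm1 at 4.73 ± 0.17 (SD, n = 2). Mx2, Iigp1 and Mx1 were the lowest there, at 0.0567, 0.0420 and 0.00755 CPM per kb.

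Across the 6 groups, Irgm1 was ordered from 34.8 CPM in uniSTING libraries labelled DC2.4 to 11.1 CPM in EXOmock libraries, and of the neighbours in this order only Mock labelled 4T1 and EXOuniSTING overlapped. Gbp2 fell into a high pair, the libraries labelled DC2.4 given mRNA, and 4 lower groups whose neighbours all overlapped. Gbp7 was as high in EXOuniSTING libraries (5.95 ± 1.15 CPM) as in uniSTING libraries labelled DC2.4 (5.96 ± 0.09 CPM), and those ranges overlapped.

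In the groups with high leukocyte markers, several members differed between preparations. Gbp2 was at 2.19 CPM in Preparation 1 and 0.577 CPM in Preparation 2 of uniSTING libraries labelled 4T1, a ratio of 3.79, and the ratio was 3.26 in Mock libraries labelled 4T1, 1.68 with EXOuniSTING and 1.69 with EXOmock. For the DC2.4 label given mRNA, the ratio was 1.15 with uniSTING and 1.09 with Mock. Gbp3 had ratios of 2.20 in uniSTING and 1.88 in Mock libraries labelled 4T1. Krt7, an epithelial keratin, moved with them, at 25 to 28 counts in each Preparation 1 library of these 4 groups and 0 to 2 counts in each Preparation 2 library; its part in the Gbp2 and Gbp3 levels was not tested. Irgm1 had ratios between 0.899 and 1.01 in all 6 groups.

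**Figure D4:**
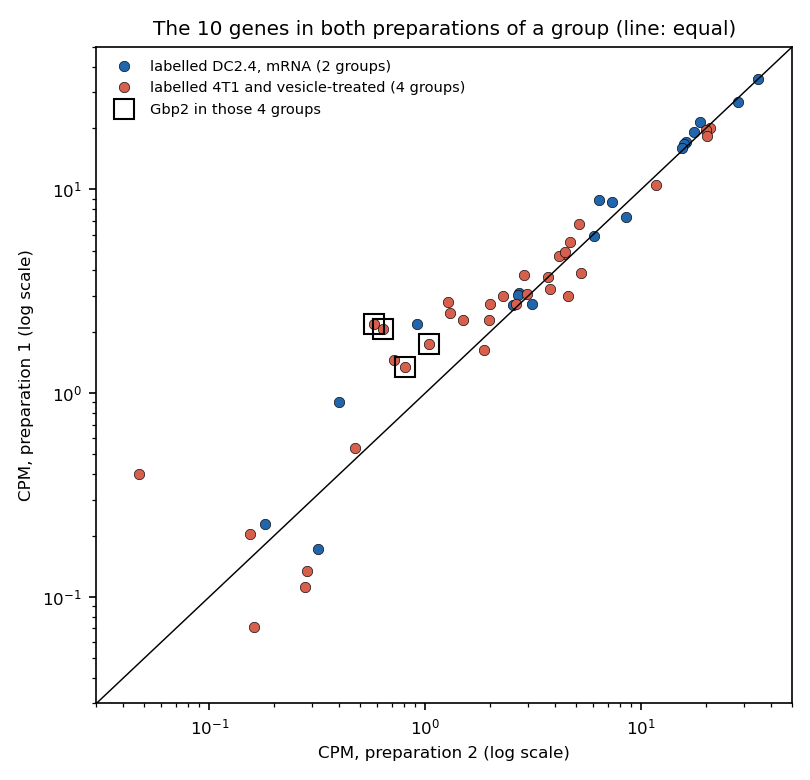
CPM of the 10 genes in Preparation 1 against Preparation 2 of the same group, both on log scales, for groups and genes with a count in both; blue points are the 2 groups labelled DC2.4 given mRNA, red points the other 4 groups, and squares mark Gbp2 in those 4. The squares lie above the line of equal values, by ratios of 1.68 to 3.79.

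The relatives of the members in the same families were mostly sparse. Of 12 other IRG genes in the files, 7 were tested. With uniSTING mRNA under the DC2.4 label, Gm12250 (Irgb10, an effector IRG that acts with GBPs against bacteria) had 20 and 21 counts with uniSTING and 4 and 3 with Mock, a log2 fold change of 2.38 ± 0.66 (adjusted p = 0.00989 by edgeR). DESeq2 gave this gene no adjusted p, and the call was lost without Mock Preparation 2 (adjusted p = 0.117) and without uniSTING Preparation 1 (adjusted p = 0.0696). Gm12250 passed the filter on low counts only through the uniSTING libraries labelled DC2.4, so its testing depended on being high there. The gene lies next to Igtp and Irgm2. Irgq, a relative not known as interferon-induced, was lower, at 11.6 ± 0.16 CPM with uniSTING and 15.6 ± 0.05 CPM with Mock (adjusted p = 0.000649). With the preparation as a block Tgtp2, an effector IRG, was also called (adjusted p = 0.0285; 0.00188 with only the libraries compared), with 50 and 71 counts for uniSTING and 21 and 24 for Mock. In the libraries labelled 4T1 and with vesicles, edgeR called 0 of the 7, with 1 and 2 of them at an unadjusted p below 0.05, and DESeq2 also called 0.

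Of 13 other GBP and giant GTPase genes, 7 were tested. EdgeR and DESeq2 called 0 of these in the libraries labelled DC2.4 given mRNA, where 2 had an unadjusted p below 0.05. With the preparation as a block Gbp4 was called (adjusted p = 0.0195), with 85 and 105 counts for uniSTING and 28 and 42 for Mock. A fit of only the libraries compared called 3 of the 7 higher, Gbp4 (adjusted p = 0.000324), Gbp2b (adjusted p = 0.0163) and Gbp9 (adjusted p = 0.0236). The share of all genes called higher in that fit is not given here, so this count has no background beside it. Gm8995, listed here with the giant GTPase genes although the RefSeq table gives it no protein and no other name, was the 1 gene called in each of the other comparisons, at 43.9 ± 0.61 CPM with uniSTING and 35.2 ± 0.42 CPM with Mock labelled 4T1 (adjusted p = 0.000322 by edgeR), and at 89.7 ± 1.51 CPM with EXOuniSTING and 77.7 ± 1.36 CPM with EXOmock (adjusted p = 0.00330). Of all genes, 12.6% were called higher under the 4T1 label and 7.96% with vesicles. The block added Gvin1 with vesicles (adjusted p = 0.0354). Gbp2b, which lies between Gbp3 and Gbp2, had 0 counts in the Mock libraries labelled 4T1 and 446 summed counts in the Mock libraries labelled DC2.4, at least 162-fold lower against a floor of 3 counts over the group. It had 0 counts in all 8 libraries with high leukocyte markers.

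Of 18 genes for interferon receptors, JAK-STAT components and interferon regulatory factors, 17 were tested. For uniSTING mRNA under the DC2.4 label, 7 were called higher and 4 lower, with a median log2 fold change of 0.05, where 20.8% of all genes were called higher and 20.9% lower. Irf7, the factor that amplifies type I interferon, was at 8.80 ± 1.22 CPM with uniSTING and 2.00 ± 0.57 CPM with Mock (adjusted p = 2.63e-07 by edgeR). Irf9, the DNA-binding subunit of the ISRE-binding complex, was at 20.4 ± 0.13 and 9.35 ± 1.02 CPM, and Usp18, a feedback inhibitor of the type I interferon receptor, at 3.96 ± 0.88 and 0.518 ± 0.156 CPM. Jak1 was lower, at 135 ± 3.38 CPM with uniSTING and 163 ± 1.84 CPM with Mock (adjusted p = 3.55e-06).

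With uniSTING in the libraries labelled 4T1, 1 gene of this list was called higher and 8 lower, with a median log2 fold change of -0.07, where 12.6% of all genes were called higher and 15.7% lower. Those lower included the interferon receptor genes Ifnar1, at a log2 fold change of -0.32 ± 0.04, Ifnar2, at -0.27 ± 0.04, and Ifngr1, at -0.36 ± 0.05. With vesicles 5 were called higher and 1 lower, with a median of 0.12, beside 7.96% and 8.14% of all genes; DESeq2 called 4 higher and 0 lower. Irf7 was at 20.3 ± 0.31 CPM with EXOuniSTING and 4.91 ± 0.29 CPM with EXOmock (adjusted p = 1.19e-06 by edgeR), Usp18 at 3.87 ± 0.41 and 0.329 ± 0.239 CPM, and Irf9 at 22.4 ± 2.49 and 13.1 ± 0.11 CPM. The 1 gene of the list called higher with uniSTING in the libraries labelled 4T1 was Irf7, at a log2 fold change of 0.43 (adjusted p = 0.0434). That call was lost in DESeq2 (adjusted p = 0.110) and whichever of the 4 libraries was left out (adjusted p from 0.0777 without uniSTING Preparation 2 to 0.186 without Mock Preparation 1). Of 8 interferon genes, none passed the filter. Ifnb1, named after its counts were seen, had 4 and 8 counts with uniSTING and 3 and 0 with Mock in the libraries labelled DC2.4 given mRNA. Ifng, the interferon gamma gene, also named after its counts were seen, had 16 counts in uniSTING Preparation 1 labelled 4T1 and 0 in the other 3 libraries with that label. Without that uniSTING library the calls of Gbp7 and Irgm2 under the 4T1 label were lost, as they were without other libraries given above. The log2 ratio of Gbp7 was 0.92 in Preparation 1 and 1.49 in Preparation 2, and that of Irgm2 was 0.77 and 0.32. The part of Ifng in these calls was not tested.

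Of 16 autophagy and ubiquitin genes, some have products that place IRG proteins and GBPs on vacuoles. With uniSTING in the libraries labelled DC2.4, 10 of the 16 were called higher and 2 lower, where 20.8% and 20.9% of all genes were. DESeq2 called 7 higher and 2 lower. The changes were small, with a median log2 fold change of 0.18 and 0 genes called at least 2-fold higher. Gabarap, an ATG8-family protein, was at 140 ± 3.35 CPM with uniSTING and 106 ± 2.84 CPM with Mock, and Gabarapl2 at 70.6 ± 2.33 and 51.9 ± 0.87 CPM. In the libraries labelled 4T1, 3 were called higher and 7 lower (3 and 5 in DESeq2), beside 12.6% and 15.7% of all genes, with Gabarap at 220 ± 1.15 CPM with uniSTING and 255 ± 3.98 CPM with Mock (adjusted p = 2.50e-05 by edgeR). Sqstm1, the autophagy receptor p62, had log2 fold changes of 0.24 in libraries labelled DC2.4 given mRNA and -0.25 in libraries labelled 4T1. With vesicles 1 was called higher, Atg12, and 2 lower, Sqstm1 and Atg16l1, beside 7.96% and 8.14% of all genes. The call of Atg16l1 was lost in DESeq2 (adjusted p = 0.118) and whichever of the 4 libraries was left out (adjusted p from 0.0641 without EXOmock Preparation 1 to 0.0776 without EXOuniSTING Preparation 1).

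Of 11 caspase and inflammasome genes that act with GBPs, 9 were tested. For uniSTING mRNA under the DC2.4 label, 3 were called higher and 1 lower, beside 20.8% and 20.9% of all genes. With uniSTING in the libraries labelled DC2.4, Casp4, the caspase that GBPs bring to bacterial lipopolysaccharide, was at 3.17 ± 0.54 CPM, against 1.80 ± 0.04 CPM with Mock (adjusted p = 0.00216 by edgeR). Casp1 was at 4.14 ± 0.01 CPM with uniSTING and 2.77 ± 0.84 CPM with Mock (adjusted p = 0.0112), a call lost without Mock Preparation 2 (log2 fold change 0.31, adjusted p = 0.278) and without uniSTING Preparation 2 (adjusted p = 0.0547). The DNA sensor Aim2 had 12 summed counts with uniSTING and 0 with Mock, at least 3.60-fold higher against a floor of 3 counts over the group. Its level with uniSTING was 0.272 ± 0.0098 CPM, nearly equal in both preparations. Pycard had 4 summed counts with uniSTING and 13 with Mock (adjusted p = 0.0385 by edgeR). The Pycard call was lost in DESeq2 (adjusted p = 0.0675), without Mock Preparation 1 (adjusted p = 0.323) and without uniSTING Preparation 1 (adjusted p = 0.0829) or Preparation 2 (adjusted p = 0.201), and the fit of only the libraries compared left Pycard and Aim2 untested. Ptprc, a leukocyte marker, had 19 and 0 counts in these uniSTING libraries and 8 and 0 in Mock libraries, all in Preparation 1; its part in these values was not tested. Under the 4T1 label, Nlrp3 was the 1 gene called, lower at 36.3 ± 1.24 CPM with uniSTING and 45.5 ± 1.81 CPM with Mock (adjusted p = 0.00166 by edgeR). Of all genes, 15.7% were called lower and 12.6% higher there. With vesicles edgeR and DESeq2 called 0 of the 9, with 1 at an unadjusted p below 0.05. In edgeR, 7.96% of all genes were called higher and 8.14% lower in that comparison.

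The genes most like the highest member of each family were found by Pearson correlation of log2(CPM + 1) over the 12 libraries, after subtracting the mean of each experiment of 4 libraries, among 12544 genes. Those most like Irgm1 were Oas2 (r = 0.979), Oasl2 (0.976) and Ddx58 (0.974), which are known antiviral genes. Those most like Gbp2 were Krt18 (0.946), Pcolce2 (0.927) and H2-Q2 (0.919), and those most like Mx2 were Aldoc (0.992), Mgst1 (0.992) and Rps27l (0.991). The 12 points share groups and preparations, and the correlations are descriptions.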

How the data were processed

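Total RNA was purified on columns and turned into Illumina libraries, per the labels' protocols. The authors deposited raw read counts per gene: per the file headers, featureCounts (Subread 2.0.1) counted read pairs over exons by gene with no strand option, on Ensembl release 103, and per the submitters' processing notes the reads were aligned with HISAT2 to GRCm39; no aligner version is given. Genes with close copies, as in the IRG and GBP families, can lose reads in such counting.

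Symbols came from a gene name table, which matched 52093 of 53647 identifiers. Counts of all 12 libraries were fitted with edgeR 4.0.16 (R 4.3.3) with 1 mean per group, TMM factors and filterByExpr by group (14863 genes), and tested by quasi-likelihood, with p-values adjusted over all genes by Benjamini and Hochberg called below 0.05. The fit gave a common biological coefficient of variation of 3.05%. Each standard error is the fold change divided by the square root of F; CPM uses the deposited totals, and values are means ± SD of 2 libraries. The procedure was tested on simulated data, in which the share of false calls was above the nominal rate in the mRNA comparison labelled DC2.4 and, by less, in the vesicle comparison. Intervals and the floor of 3 counts (0.115 to 0.213 CPM per library) cover counting error only.

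Same-numbered libraries of different groups deviated together, with correlations of 0.294 to 0.470 over all 15 pairs of groups, so the preparation number from the labels was taken to pair them. The main fit did not use this pairing. The fit with the preparation number as a block is given where it changes the call of a response in a member or a family relative. Other alternatives were DESeq2 1.42.0, its size factors, upper-quartile scaling, other filters, limma-voom (limma 3.58.1), fits of only the libraries compared, removal of a trend with gene length, and leaving out each library; ratios within each preparation were added after seeing the data.

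The members, the gene lists and the tests were chosen with earlier results of these data known. All 10 members are described; of each list, up to 4 called genes with the smallest adjusted p per comparison could be named, and Irf7 under the 4T1 label, Tgtp2, Gbp4, Gvin1, Gbp2b, Gbp9, Ifnb1 and Ifng were named after their values were seen. Promoters are from RefSeq (GRCm38.p6).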

Additional observations from a re-analysis of the deposited data

Results flagged for a closer look

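The tests of a difference between responses picked out 5 values. The uniSTING mRNA response in libraries labelled DC2.4 minus that in libraries labelled 4T1 was 3.91 on the log2 scale for Mx2, 0.98 for Irgm2, 0.96 for Igtp and 0.34 for Irgm1. Mx2 could be tested only because the uniSTING libraries labelled DC2.4 let it pass the filter on low counts. The calls of Igtp and Irgm1 were lost in DESeq2 and in several fits with 1 library left out. The vesicle response minus the mRNA response labelled 4T1 was 0.77 for Irgm1. Since the markers of these libraries go against their labels, which cell line gave the larger mRNA response cannot be told from the labels alone.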

How the results depend on the processing

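Of 859 values of the tested members under the alternatives, 819 kept their side of the threshold, 29 lost a call and 11 gained one. Of the 819, 765 kept their direction and 54, called in neither fit, changed sign; 0 called values changed direction. Of 86 log2 ratios taken in 1 preparation alone, none turned a called value round, though only the ratios of called values could be counted so. These ratios come from the same libraries as the fold changes. In the libraries labelled 4T1, the count of 2 called members became 1 in DESeq2, 1 without a filter and 1 in limma-voom, and 0 to 2 with 1 library left out. With vesicles, the count of 2 became 1 in DESeq2, 1 with a filter of at least 1 CPM in 4 libraries, which left Mx2 untested, and 1 whichever library was left out. For the difference of mRNA responses, the count of 4 became 2 in DESeq2 and 2 to 3 with 1 library left out. For the vesicle response minus the mRNA response labelled 4T1, the count of 1 was 1 to 2 with 1 library left out. The causes were not tested. The count of 6 in the libraries labelled DC2.4 given mRNA was 6 to 7 with 1 library left out; leaving out a library leaves its group with 1, which is assumed to vary like the other groups. With the preparation number as a replicate block the counts were 7, 2 and 2 in the 3 comparisons with uniSTING or EXOuniSTING and 4 and 1 in the 2 differences of responses, and the block changed the calls of Iigp1, Gbp7 and Mx2 given with the results and no other call of a member. Depth limits Iigp1, Mx1 and Mx2, which had under 10 counts in most libraries.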
